A study of Mus musculus with 6 samples.

Results

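The 10 genes described here encode the melanocortin 1 receptor (Mc1r) and regulators that carry its cyclic AMP (cAMP) signal to the transcription factor CREB. They were taken by symbol from the processed table as Mc1r, Prkaca, Creb1, Crem, Atf1, Crtc1, Crtc2, Crtc3, Sik1 and Sik2. All 10 had a row among the 15726 genes of the table, and all 10 reached the filter for testing, a mean of at least 1 FPKM in either group. FPKM scales the reads of a gene to its length and to the library's total. The libraries came from B16F10, an established mouse melanoma line. One group of 3 libraries was from cells kept for 8 h in medium with rPPAA18C6@Dox at 50 μg/mL, and the other group of 3 from cells kept as long in medium with PBS. The submitters name the preparation by this code alone, and their title describes a nanoplatform built on a potassium ionophore that responds to reactive oxygen species. Nothing in the labels says whether separate cultures were used within a group, so the p-values below refer to the spread among these 6 libraries, and that spread may be technical.

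MC1R is the receptor of melanocytes for α-melanocyte-stimulating hormone. Through the stimulatory G protein it activates adenylyl cyclase, and the cAMP that forms releases the catalytic subunits of protein kinase A (PKA), of which Prkaca encodes the main form in most tissues. PKA phosphorylates CREB and its relatives CREM and ATF1, and it also inhibits the salt-inducible kinases (SIKs). SIKs otherwise phosphorylate the CRTC coactivators and so keep them out of the nucleus. In melanocytes CREB and CRTC act on the promoter of Mitf, the factor that drives the genes of melanin synthesis, and CREB also induces Sik1, Crem and phosphodiesterases that oppose the signal.

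Each library held 36380462 to 37067116 reads over the genes of the table, as recovered from the steps in the values. The melanocyte markers fixed for this work were all present, with Tyrp1 at 1767 and Pmel at 1279 FPKM on average in the PBS libraries. Their summed level was 7198 to 7228 FPKM in the rPPAA18C6@Dox libraries and 6145 to 6233 FPKM in the PBS libraries. Of 14 markers of immune, fibroblast, epithelial and endothelial cells, 6 had a row. Their summed level was 5.29 to 5.57 FPKM in the rPPAA18C6@Dox libraries and 5.63 to 6.10 FPKM in the PBS libraries. Of their 3 tested genes none passed the test (limma, with 1 at an unadjusted p under 0.05 and 0 calls by voom). In bulk RNA a lower level in each cell and fewer cells expressing a gene cannot be told apart. The table's values are mRNA levels and hold no measure of cAMP, of kinase activity or of where a protein lies in the cell.

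The promoters below were picked by hand. They show letters known to be read by factors of this pathway, in receptor, kinase and target genes whose values follow. They are RefSeq promoters of build GRCm38.p6, from 250 bases before to 50 bases after the start site. The table of promoters matched 7 of the 10 genes, all but Sik1, Crem and Crtc2. The cAMP response element (CRE) is TGACGTCA, the same on both strands, and its core is TGACG, read as CGTCA on the other strand. The core lies inside the full element, so a full element counts as a match to both. Of 32851 promoters of this length in the table, 1.79% hold the full element and 20.8% the core. The E-box CATGTG, a sequence that MITF binds, was searched as CATGTG or CACATG and is in 14.2% of them. In Mc1r (chr8:123406832-123407131, plus strand) capitals mark 2 such E-boxes, whose first bases lie 62 and 51 bases before the start site. In Sik2 (chr9:51009024-51009323, minus strand) capitals mark 2 CRE cores, 1 base before and 12 bases after it. In the Mitf promoter at chr6:97991533-97991832 (plus strand) they mark the full CRE, 153 bases before it. In Fos (chr12:85473640-85473939, plus strand) they mark 2 CRE cores at 129 and 66 bases before it. In Nr4a3 (chr4:48045055-48045354, plus strand) they mark 4 cores, the first 231 and the last 147 bases before it.
Mc1r: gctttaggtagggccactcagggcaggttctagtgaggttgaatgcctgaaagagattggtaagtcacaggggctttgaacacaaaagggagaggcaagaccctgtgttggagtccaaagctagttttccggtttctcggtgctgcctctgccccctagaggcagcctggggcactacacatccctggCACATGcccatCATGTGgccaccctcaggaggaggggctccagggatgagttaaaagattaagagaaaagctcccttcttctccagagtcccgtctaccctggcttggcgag
Sik2: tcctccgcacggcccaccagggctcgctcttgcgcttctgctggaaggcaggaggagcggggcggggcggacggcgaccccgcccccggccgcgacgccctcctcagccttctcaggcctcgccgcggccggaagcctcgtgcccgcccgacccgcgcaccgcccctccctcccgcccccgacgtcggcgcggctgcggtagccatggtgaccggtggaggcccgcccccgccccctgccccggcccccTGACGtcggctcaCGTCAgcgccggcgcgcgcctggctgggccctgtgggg
Mitf: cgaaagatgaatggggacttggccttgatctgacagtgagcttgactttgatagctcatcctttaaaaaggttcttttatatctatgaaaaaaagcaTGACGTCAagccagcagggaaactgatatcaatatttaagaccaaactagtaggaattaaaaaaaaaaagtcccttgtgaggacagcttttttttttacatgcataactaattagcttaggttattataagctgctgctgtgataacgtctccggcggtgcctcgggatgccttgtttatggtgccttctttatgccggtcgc
Fos: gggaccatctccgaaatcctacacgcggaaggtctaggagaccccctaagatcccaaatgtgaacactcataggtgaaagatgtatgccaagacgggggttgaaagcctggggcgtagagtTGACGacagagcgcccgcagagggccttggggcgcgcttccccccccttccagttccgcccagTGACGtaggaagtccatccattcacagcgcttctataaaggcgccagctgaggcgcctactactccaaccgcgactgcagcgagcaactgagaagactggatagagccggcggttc
Nr4a3: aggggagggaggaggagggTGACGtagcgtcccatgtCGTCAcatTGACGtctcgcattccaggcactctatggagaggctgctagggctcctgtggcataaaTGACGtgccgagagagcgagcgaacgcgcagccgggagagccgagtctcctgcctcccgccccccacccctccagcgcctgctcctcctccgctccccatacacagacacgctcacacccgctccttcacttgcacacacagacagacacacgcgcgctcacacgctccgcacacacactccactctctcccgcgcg

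Among the 7 matched genes the CRE core was found in Prkaca, Sik2 and Atf1, and the E-box in Mc1r alone. None of the 7 held the full CRE in this window. Of the 25 genes in a list of known CREB targets that had a row of values, 19 matched the table of promoters. Of these, 17 held the core and 2, Mitf and Dusp1, the full element in at least 1 of their listed start sites. Many of these genes have several start sites in the table, whereas the shares given for all promoters are per start site. A match is a run of letters and not evidence of binding, and the gene-level values do not show which start site was used.

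Mc1r and Sik1 rose in the rPPAA18C6@Dox libraries, and none of the 10 genes fell. The kinase subunit Prkaca and the factors Creb1 and Atf1 differed by less than 3% between the groups. Crem was 39.9% higher, just short of the threshold, and Crtc1 and Crtc2 were lower, with differences of -10.4% and -7.84%, also short of it. The count of 2 in 10 stands beside 9.93% of the 10680 tested genes that changed at an adjusted p under 0.05 (limma on log2(FPKM + 1), Benjamini-Hochberg), with 4.66% higher and 5.26% lower. In 5 of the 10 genes the groups did not overlap, 3 higher and 2 lower, where 31.3% of tested genes had no overlap, 12.6% higher and 18.7% lower. The median difference was 0.0154 on the log2 scale for the 10 genes and -0.0129 for all tested genes. The column that holds each treated library carries a letter and a number that match the titles only by elimination, and the direction of each difference given here depends on that reading.

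**Figure D1:**
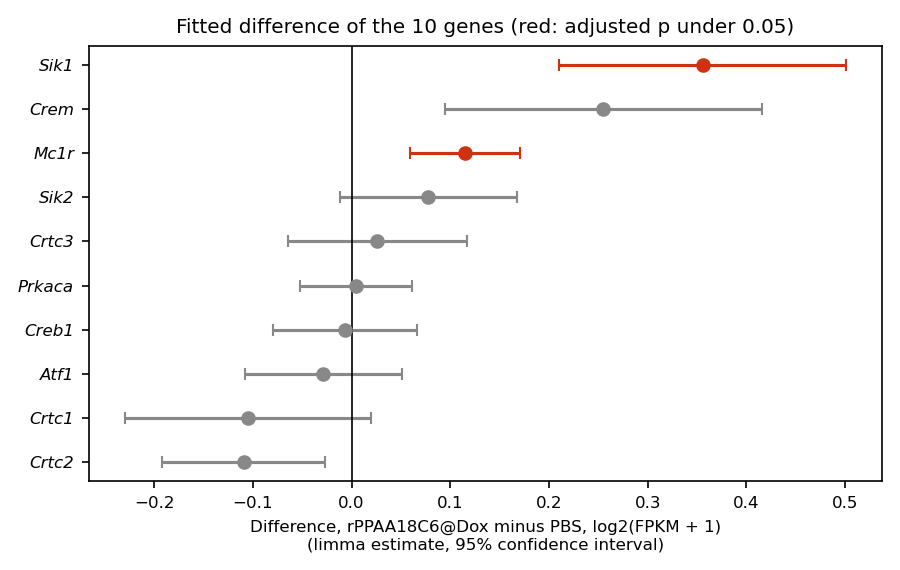
Difference between the groups for each of the 10 genes, as the limma estimate of rPPAA18C6@Dox minus PBS on the log2(FPKM + 1) scale with its 95% confidence interval (3 libraries per group). Red points are genes with an adjusted p under 0.05, which are Sik1 at 0.36 and Mc1r at 0.12, and grey points are the other 8.

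Mc1r, the receptor at the head of the pathway, was at 76.9, 75.6 and 74.6 FPKM in rPPAA18C6@Dox replicates 1, 2 and 3 and at 68.5, 70.9 and 70.01 FPKM in PBS replicates 1, 2 and 3. All 3 treated libraries lay above all 3 PBS libraries. The means were 75.7 ± 1.16 and 69.8 ± 1.19 FPKM (SD, n = 3 each), a rise of 8.44%. On the log2(FPKM + 1) scale the rise was 0.12 (SE 0.0250, 95% interval 0.06 to 0.17, limma adjusted p = 0.0194). It rested on 9383 to 10398 reads per library, the most of the 10 genes. The size of the rise hardly moved without any single library, at 0.10 to 0.13 on the log2 scale. Its adjusted p passed 0.05 when rPPAA18C6@Dox replicate 1 (0.0616) or 2 (0.0536) was left out, and likewise PBS replicate 1 (0.0601) or 3 (0.0580). It also did so without limma's trend (0.0633). Exons of Mc1r overlap a gene with a clone name on the other strand, and how strand was used in counting is not known here.

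In the PBS libraries Mc1r also had the highest level of the 10 genes per length, 73.5 times that of Crem, the lowest. Prkaca followed at 38.1 ± 0.472 FPKM, then Atf1 at 18.1 ± 0.752, Crtc2 at 13.6 ± 0.437, Creb1 at 10.2 ± 0.101 and Sik2 at 6.53 ± 0.175 FPKM. Crtc3 at 5.98 ± 0.0666, Sik1 at 3.43 ± 0.381, Crtc1 at 2.05 ± 0.0815 and Crem at 0.950 ± 0.0960 FPKM were lower still (SD, n = 3 each). The ranges of neighbouring genes in this order did not overlap in either group. The closest pair was Sik2 and Crtc3, with a ratio of 1.09 in the PBS libraries.

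**Figure D2:**
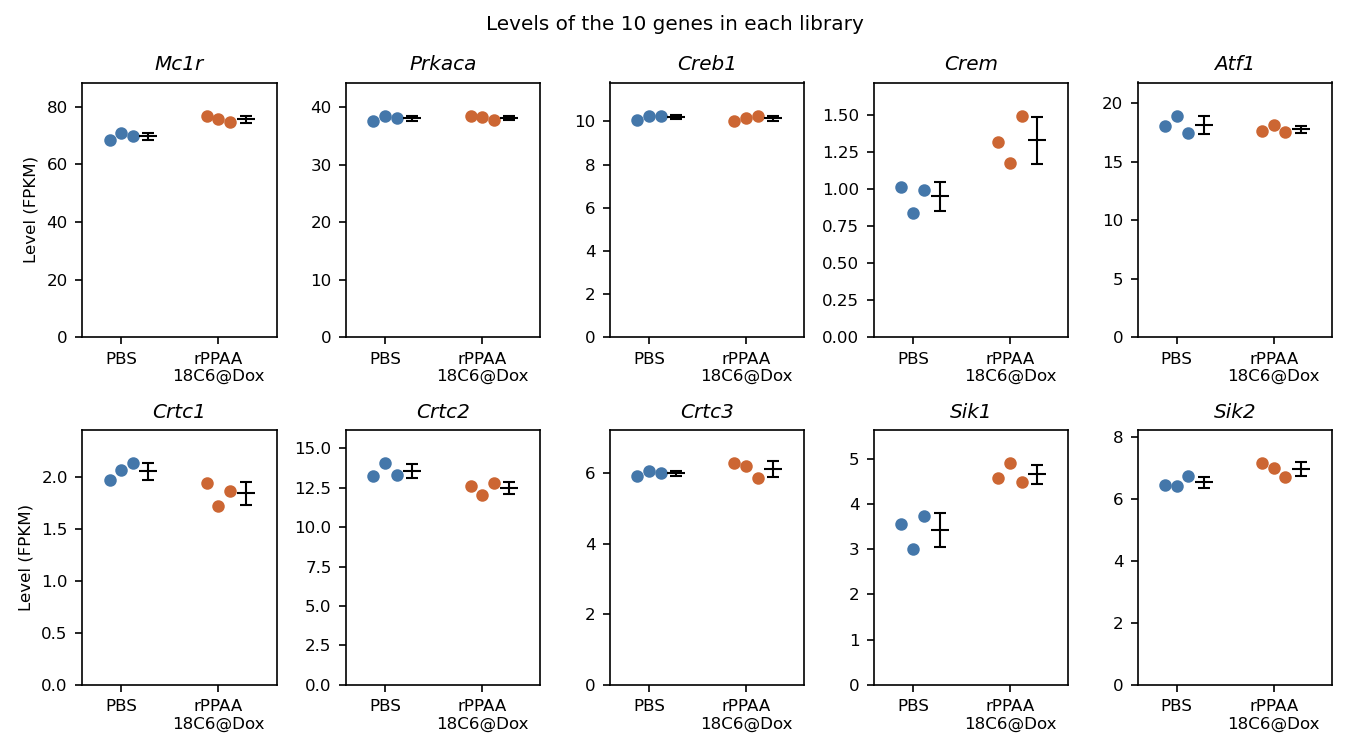
Level of each gene in FPKM in the 3 PBS libraries (blue) and the 3 rPPAA18C6@Dox libraries (orange), in order of replicate number, with the mean and SD of each group beside the points in black; every axis starts at 0 and has its own range. The groups are apart upward for Mc1r, Crem and Sik1, apart downward for Crtc1 and Crtc2, and overlap for the other 5 genes.

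Prkaca, the catalytic subunit of PKA, was at 38.5, 38.2 and 37.8 FPKM in the treated libraries and at 37.6, 38.5 and 38.06 FPKM in the PBS libraries. The groups overlapped, and the difference was 0.0045 on the log2 scale (SE 0.0253, 95% interval -0.05 to 0.06, adjusted p = 0.932). The interval covers differences of both signs, and the sign turned without rPPAA18C6@Dox replicate 1 or PBS replicate 1. Of the 6 other tested PKA subunits and inhibitors 2 fell and none rose, where 5.26% of all tested genes fell and 4.66% rose. Prkar2b, a regulatory subunit, went from 11.5 ± 0.335 to 10.4 ± 0.351 FPKM (log2 difference -0.14, SE 0.0379, adjusted p = 0.0421). Prkacb, the second catalytic subunit, went from 21.65 ± 0.403 to 20.05 ± 0.0422 FPKM (-0.11, SE 0.0284, adjusted p = 0.0448). These calls were fragile: that of Prkacb was lost without any 1 of the 6 libraries (adjusted p 0.0769 to 0.147), and that of Prkar2b without any but rPPAA18C6@Dox replicate 1 (0.0415 to 0.136).

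Of the 3 related transcription factors that PKA phosphorylates, Creb1 and Atf1 did not differ beyond the spread between libraries, and Crem was higher in every treated library. Creb1 was at 10.01, 10.2 and 10.3 FPKM with rPPAA18C6@Dox and at 10.1, 10.3 and 10.2 FPKM with PBS (log2 difference -0.0065, SE 0.0327, 95% interval -0.08 to 0.07, adjusted p = 0.924). Atf1 was at 17.6, 18.1 and 17.5 FPKM with rPPAA18C6@Dox and at 18.1, 18.9 and 17.4 FPKM with PBS (-0.03, SE 0.0357, 95% interval -0.11 to 0.05, adjusted p = 0.653). For both genes the libraries of the groups overlapped.

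Crem encodes activators and, from a promoter inside the gene, the short repressor ICER, which CREB induces. The table has a single value per gene, so these forms cannot be told apart, and its exons overlap a clone-named gene on the other strand. Crem was at 1.32, 1.18 and 1.49 FPKM in the treated libraries and at 1.01, 0.839 and 0.995 FPKM in the PBS libraries, with 284 to 503 reads per library. The groups did not overlap, and the difference was 0.26 on the log2(FPKM + 1) scale (SE 0.0719, 95% interval 0.09 to 0.42, adjusted p = 0.0522). This scale understates the change of a gene near 1 FPKM, and the ratio of the means was 1.40. With limma's voom on the recovered reads, where 15.3% of genes were called, the difference was 0.48 (adjusted p = 0.000751). Over all alternatives the adjusted p of Crem ran from 0.000751 to 0.158, and it was below the threshold with voom, with quantile normalization (0.0383) and without the trend (0.0397).

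The CRTC coactivators, which bind CREB at its targets, did not pass the test. Crtc2 was at 12.6, 12.07 and 12.8 FPKM with rPPAA18C6@Dox and at 13.3, 14.1 and 13.3 FPKM with PBS. Each treated library lay below each PBS library (log2 difference -0.11, SE 0.0370, 95% interval -0.19 to -0.03, adjusted p = 0.0923). Crtc1 was at 1.94, 1.72 and 1.86 FPKM with rPPAA18C6@Dox and at 1.97, 2.06 and 2.13 FPKM with PBS. Its groups were also apart (-0.11, SE 0.0559, 95% interval -0.23 to 0.02, adjusted p = 0.270), by as little as 1.94 against 1.97 FPKM. Crtc3 was at 6.27, 6.21 and 5.86 FPKM with rPPAA18C6@Dox and at 5.91, 6.05 and 5.98 FPKM with PBS, and overlapped (0.03, SE 0.0406, 95% interval -0.06 to 0.12, adjusted p = 0.730).

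Sik1, the SIK that cAMP signalling itself induces, had the smallest p of the 10 genes. It was at 4.58, 4.91 and 4.5 FPKM in the treated libraries and at 3.55, 3.01 and 3.74 FPKM in the PBS libraries, with 508 to 828 reads per library. All treated libraries were above all PBS libraries. The means were 4.66 ± 0.215 and 3.43 ± 0.381 FPKM, a rise of 35.8%. On the log2(FPKM + 1) scale, which also understates the change at this level, the difference was 0.36 (SE 0.0651, 95% interval 0.21 to 0.50, limma adjusted p = 0.00841). With voom it was 0.45. The call held in all 12 alternatives in which Sik1 was tested (adjusted p 4.44e-05 to 0.0466), and with 1 library left out the estimate was 0.28 to 0.41. PBS replicate 2 was the lowest library, and without it the estimate was the lowest, 0.28. Its relative Sik2, which is known to restrain CRTC1 and pigmentation in mouse melanocytes, was at 7.15, 6.99 and 6.71 FPKM with rPPAA18C6@Dox and at 6.44, 6.42 and 6.74 FPKM with PBS. Its groups overlapped through PBS replicate 3 (log2 difference 0.08, SE 0.0404, 95% interval -0.01 to 0.17, adjusted p = 0.259). Exons of Sik2 overlap those of Ppp2r1b on the other strand, so reads of both genes may be mixed in its value.

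Within a library FPKM can be set side by side between genes, so the make-up of each family was also compared. Crtc2 made up 62.8 ± 0.618% of the summed CRTC level in the PBS libraries, Crtc3 27.7 ± 0.376% and Crtc1 9.52 ± 0.360%. The share of Crtc3 was 29.9 ± 1.27% with rPPAA18C6@Dox, above every PBS library in all 3. The CRTC sum was 20.4 ± 0.411 FPKM with rPPAA18C6@Dox and 21.6 ± 0.523 FPKM with PBS, again with no overlap. Atf1 made up 61.9 ± 1.11% of the CREB, CREM and ATF1 sum with PBS, Creb1 34.8 ± 0.806% and Crem 3.25 ± 0.393%. With rPPAA18C6@Dox the share of Crem was 4.55 ± 0.550%. Sik1 made up 14.3 ± 1.39% of the summed level of Sik1, Sik2 and Sik3 with PBS and 17.99 ± 0.472% with rPPAA18C6@Dox, and Sik3 58.5 ± 1.51% and 55.2 ± 0.346%. An exact permutation test, two-sided, gave p = 0.1 for the shares of Crtc3, Crem, Sik1 and Sik3 and for the CRTC and SIK sums, which is the smallest p that 3 against 3 libraries allow. Adjusted over the 12 shares and sums tested it was 0.2. The shares of a family add up to the whole, so a rise in the share of a gene lowers those of the others together. These shares are therefore not separate results. The level of Sik3 itself was 14.3 ± 0.636 FPKM with rPPAA18C6@Dox and 14.1 ± 0.296 FPKM with PBS.

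**Figure D3:**
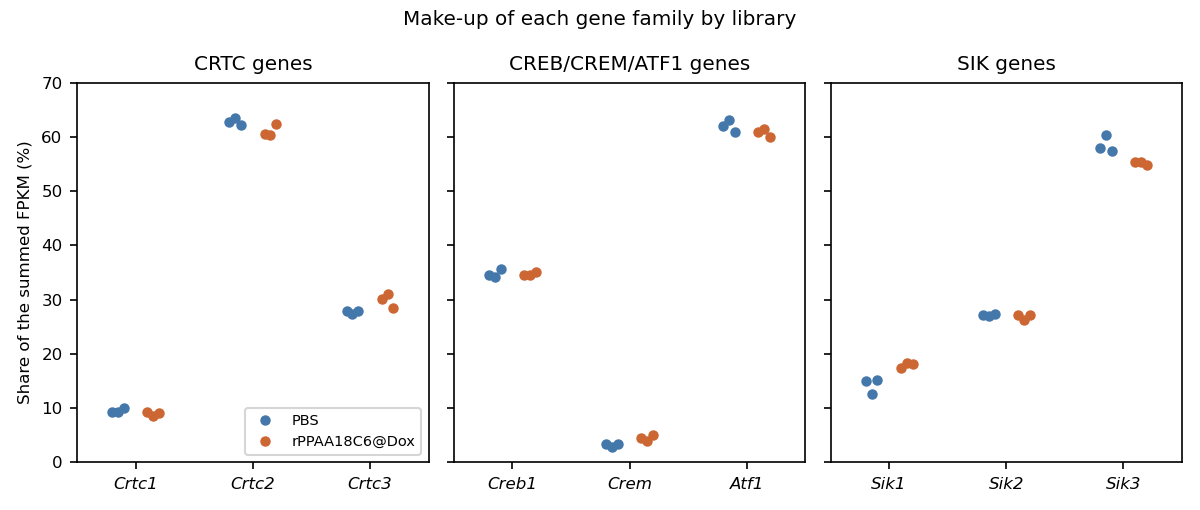
Share of each gene in the summed FPKM of its family, in percent, in the 3 PBS libraries (blue) and the 3 rPPAA18C6@Dox libraries (orange). Crtc2, Atf1 and Sik3 hold most of their family in every library, and the shares of Sik1 and Crem are higher in all treated libraries, at 17.99% against 14.3% and 4.55% against 3.25% on average.

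Around these 10 genes, 63 tested genes in 8 lists of the pathway had 3 rises and 5 falls, or 12.7%, beside the 9.93% of all tested genes. Of 11 tested receptor, ligand and G protein genes 1 rose and none fell, with a median of -0.05 on the log2 scale. Voom, which called 15.3% of all tested genes, gave 3 calls in this list. The riser was Mgrn1, a ubiquitin ligase that acts on melanocortin receptors, from 14.9 ± 0.273 to 16.3 ± 0.277 FPKM (0.12, SE 0.0312, adjusted p = 0.0372). Its call was lost without any 1 of the 6 libraries (0.0652 to 0.116), and its exons overlap a clone-named antisense gene. Gnas, the stimulatory G protein, was at 131 ± 0.578 FPKM with rPPAA18C6@Dox and 136 ± 2.18 FPKM with PBS (-0.05, adjusted p = 0.177). Each treated library lay below each PBS library for Gnas. The groups were apart downward in 5 of the 11 genes and upward in 1, where 18.7% and 12.6% of all tested genes were apart. Pomc, the precursor of the hormone, was near the filter at 1.71 ± 0.120 FPKM with rPPAA18C6@Dox and 1.77 ± 0.211 FPKM with PBS (-0.03, adjusted p = 0.809).

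As a share of all tested genes, limma called 4.66% higher and 5.26% lower, and voom called 15.3%. Of 3 tested adenylyl cyclases 1 rose, Adcy7, from 8.17 ± 0.156 to 9.43 ± 0.551 FPKM (log2 difference 0.18, SE 0.0444, adjusted p = 0.0290). It was above all PBS libraries in all 3 treated libraries, but its call was lost without any library except rPPAA18C6@Dox replicate 3 (0.0162 to 0.0919). The enzymes that break down cAMP gave no call among 5 tested (limma, 1 with an unadjusted p under 0.05, and 0 by voom). Pde1b had the smallest p, at 7.44 ± 0.288 FPKM with rPPAA18C6@Dox and 8.14 ± 0.459 FPKM with PBS (-0.11, SE 0.0466, adjusted p = 0.155). Of the 11 tested anchoring proteins of PKA 1 rose and none fell (limma, with 3 calls by voom). The groups did not overlap in 3 of them upward and in 3 downward, where 12.6% of all tested genes were apart upward and 18.7% downward. Akap12, among the 3 anchoring genes apart downward, was just short of the threshold (-0.12, SE 0.0346, adjusted p = 0.0507). Pakap, which the list holds under its older symbol Akap2, went from 19.99 ± 0.7745 to 26.0 ± 0.134 FPKM (0.36, SE 0.0330, adjusted p = 0.000120). That locus also makes Palm2 transcripts, so the anchoring protein's own share of the reads is not known. Both tested cAMP effectors outside PKA, Rapgef3 and Rapgef4 (the EPAC exchange factors), were short of the threshold (limma, 0 calls, both at an unadjusted p under 0.05, and 2 by voom). Rapgef4 was at 8.06 ± 0.126 FPKM with rPPAA18C6@Dox and 8.78 ± 0.204 FPKM with PBS (-0.11, SE 0.0360, adjusted p = 0.0824).

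Of all tested genes 5.26% fell and 4.66% rose. Genes that control SIKs and CRTCs, or that SIKs act on, gave 2 falls and no rise among 15 tested. Both falls were class IIa histone deacetylases, which SIKs phosphorylate as they do CRTCs. Hdac5 went from 19.99 ± 0.6455 to 17.4 ± 0.509 FPKM (log2 difference -0.19, SE 0.0352, adjusted p = 0.00841), and its call held in all 13 alternatives. Hdac7 went from 1.20 ± 0.0705 to 0.867 ± 0.0460 FPKM (-0.24, SE 0.0613, adjusted p = 0.0376). With voom its difference was -0.47. Its call was lost without any 1 library (0.0711 to 0.109), and its exons overlap those of Slc48a1 on the other strand. Hdac4, of the same class, did not pass the test, with a difference of 0.0002 (SE 0.0573, 95% interval -0.13 to 0.13, adjusted p = 0.999). The upstream kinase Stk11 (LKB1), the calcineurin genes and Sik3 did not pass the test, and Sik3 differed by 0.02 on the log2 scale (SE 0.0382, adjusted p = 0.763).

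Among 10 tested CREB kinases and coactivators 1 fell and none rose, where 5.26% of all tested genes fell and 4.66% rose. The median of this list was -0.07. Rps6ka3 (RSK2), a kinase that phosphorylates CREB downstream of ERK, went from 22.2 ± 0.180 to 19.95 ± 0.0871 FPKM (-0.15, SE 0.0272, adjusted p = 0.00853), and its call held in all 13 alternatives. The groups did not overlap in 1 gene of this list upward and in 4 downward, where 12.6% and 18.7% of all tested genes were apart. Voom, which called 15.3% of all tested genes, gave 3 calls. Camk1, among the 4 genes apart downward, was just short of the threshold (-0.17, SE 0.0483, limma adjusted p = 0.0522). The coactivators Crebbp (-0.08, adjusted p = 0.463) and Ep300 (-0.04, adjusted p = 0.588) did not pass.

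**Figure D4:**
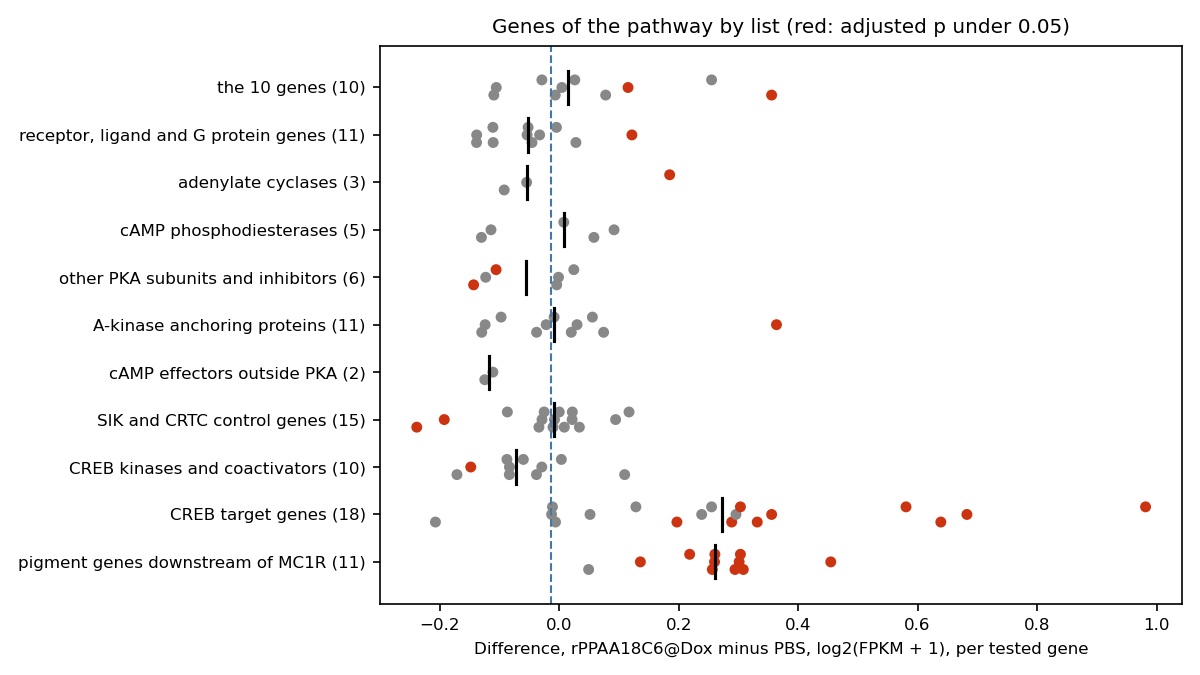
Difference between the groups, rPPAA18C6@Dox minus PBS on the log2(FPKM + 1) scale, for each tested gene of the 10 genes and of the 10 pathway lists, with the number tested in brackets. Red points have an adjusted p under 0.05, black bars are list medians and the dashed line is the median of all tested genes, -0.0129; the medians of the CREB target and pigment lists, 0.27 and 0.26, lie to the right of those of the other lists.

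Known CREB target genes had 9 rises and no fall among 18 tested, where 4.66% of all tested genes rose and 5.26% fell. Their median was 0.27 on the log2 scale, beside -0.0129 for all tested genes. Sik1 is 1 of the 9. Without it and Crem, 8 of 16 rose. The largest difference was that of Ppargc1a, a coactivator of mitochondrial genes and a classic CREB target, at 10.2, 9.66 and 10.1 FPKM with rPPAA18C6@Dox and at 4.42, 4.77 and 4.49 FPKM with PBS (0.98, SE 0.0419, adjusted p = 1.84e-06). The nuclear receptor gene Nr4a3, whose promoter is printed above, was at 27.2, 28.4 and 26.4 FPKM with rPPAA18C6@Dox and at 16.2, 17.4 and 18.04 FPKM with PBS (0.64, SE 0.0426, adjusted p = 1.78e-05). In both genes the treated libraries stood well clear of the PBS libraries. Fos, an immediate early gene with 2 CRE cores in its promoter, was at 3.38, 3.39 and 3.67 FPKM with rPPAA18C6@Dox and at 2.03, 1.69 and 1.67 FPKM with PBS (0.68, SE 0.0631, adjusted p = 0.000133). With voom its difference was 0.96. Cores were not particular to the risers. Of the 19 targets matched to a promoter, 17 held the core. Among them Nr4a2 (4 cores) and Cebpb (3 cores) did not pass the test.

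Mitf, at which the CREB signal meets pigmentation, was at 56.9, 56.7 and 55.7 FPKM with rPPAA18C6@Dox and at 44.95, 46.65 and 44.97 FPKM with PBS (0.30, SE 0.0261, adjusted p = 8.86e-05). The other risers were Atf3 (0.58), the phosphatase gene Dusp1 (0.33), the kinase gene Sgk1 (0.29) and Nr4a1 (0.20). Those short of the threshold ran from Nr4a2, at -0.21 with all treated libraries below all PBS libraries (adjusted p = 0.0655), to Id1 at 0.30 (adjusted p = 0.0796). Per1, Cebpb, Nfil3 and Irs2 lay between -0.01 and 0.05. Of the 9 risers, Fos, Atf3, Dusp1 and others also answer to ERK or stress signals, and which input reached them was not tested. The summed melanocyte markers, Mitf among them, were also higher in every treated library, and their part in these counts was not tested. The list was written with earlier results of these data known, so its count is no independent evidence of a direction.

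**Figure D5:**
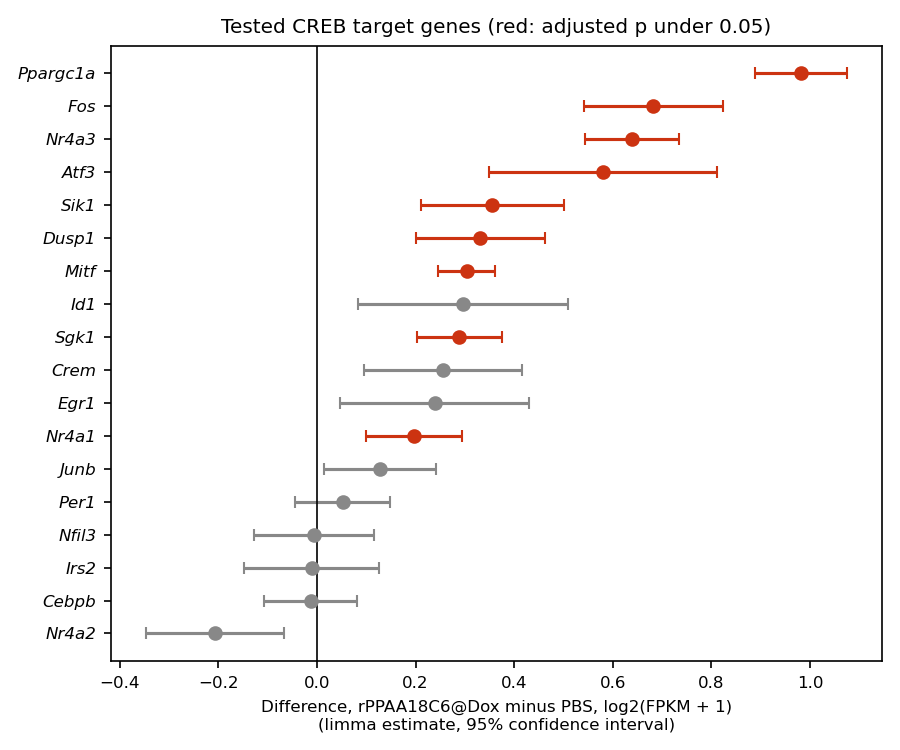
Difference between the groups for the 18 tested CREB target genes, as the limma estimate of rPPAA18C6@Dox minus PBS on the log2(FPKM + 1) scale with its 95% confidence interval (3 libraries per group). The 9 red genes have an adjusted p under 0.05 and all lie above 0, from Nr4a1 at 0.20 to Ppargc1a at 0.98.

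The pigment genes at the end of the pathway rose in 10 of 11 tested cases, with a median of 0.26, and none fell. Over all tested genes 4.66% rose and the median was -0.0129. The pigment list, too, was written with earlier results of these data known. Its count is therefore no independent evidence of a direction. Trpm1, the melastatin channel (0.45), the melanosomal exchanger Slc24a5 (0.31), the melanin enzyme Tyrp1 (0.29) and the fibril protein Pmel (0.26) had the smallest p. Mitf is in this list as well as in that of the CREB targets, and exons of Slc24a5, Pmel and Trpm1 overlap genes on the other strand, for Trpm1 one with a clone name. Beside these the receptor's own rise was small: Mc1r at 0.12 was below 10 of the 11, and only Mlana, at 0.05 (adjusted p = 0.201), was lower. These differences were not tested against each other.

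Of the tested genes outside the lists with a mean of at least 5 FPKM, the 3 most like Sik1, the gene with the smallest p, over the 6 libraries were Ccn4, Pdpn and Mknk2. Likeness was the Euclidean distance between log2(FPKM + 1) values centred on the PBS mean, which was 0.152, 0.167 and 0.176. Ccn4, a secreted matricellular protein gene, was at 7.78 ± 0.267 FPKM with rPPAA18C6@Dox and 6.14 ± 0.306 with PBS. Pdpn, which encodes the membrane glycoprotein podoplanin, was at 17.4 ± 0.569 and 13.9 ± 0.351 FPKM. Mknk2, a kinase gene of the translation factor eIF4E, was at 171 ± 2.95 and 131 ± 0.952 FPKM. All 3 shared with Sik1 a complete separation of the groups, and the measure was chosen to find such genes.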

How the data were processed

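Poly(A) RNA of B16F10 cells was sequenced in 6 libraries made with a stranded mRNA kit, per the labels' protocols. The authors deposited 1 value per gene and library, read here as FPKM from the values since the header names no unit, and a p-value per gene from a test that is not stated in the file headers. Per the submitters' processing notes the build was mm9, so no gene coordinates are given beside the RefSeq promoters of GRCm38.p6. The aligner, counter and strand setting were not given in the sources used here.

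For all 15726 genes 1 factor per gene turned the 6 values into whole reads within 0.01. Libraries of a group differed by more than sampling noise and were counted separately. Values were tested as log2(FPKM + 1) with limma 3.58.1 (R 4.3.3), its trend option on, unpaired and two-sided, over 10680 genes with a mean of at least 1 FPKM in either group, with Benjamini-Hochberg adjustment over all of them and a threshold of 0.05. This test was also run on simulated data, whose outcome is not reported here and is not used as support. List genes were looked up by symbol or else by RefSeq synonym, and those with no row were not analysed here. Named in each list were the called genes, up to 4 by p, or the 1 with the smallest p, and others were added after their values were seen. The 10 genes and the lists were chosen with earlier results of these data known. Alternatives covered the pseudocount, filter, scaling, trend, voom on the recovered reads, a replicate block and each library left out.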

Additional observations from a re-analysis of the deposited data

How the results depend on the processing

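The counts of calls, the 10 genes and the genes named by rule were recomputed under 13 alternatives, or 12 for Crem, Crtc1, Sik1, Hdac7 and Fos, which a mean of at least 5 FPKM removes. The family shares and the genes named after their values were seen were not. Of the 10 genes 2 rose and none fell in the test as reported. With a mean of at least 5 FPKM, which removes Sik1 from the test by construction, 1 rose, and with 1 library left out 1 to 2 did. Mc1r kept its direction in all 13, at 0.10 to 0.13 with 1 library left out (adjusted p 0.0305 to 0.0616), and lost its call without the trend (0.12 on the log2 scale). Crem became a call with quantile normalization (0.27), without the trend (0.26) and with voom (0.48). Signs turned only in leave-one-out fits of genes near 0: Creb1 ran from -0.0140 to 0.0021, Atf1 from -0.0559 to 0.000483 and Prkaca from -0.0042 to 0.0133. Over all genes 1060 changed, 681 with no filter and 1636 with voom, and 600 to 749 with 1 library left out (314 to 371 higher, 285 to 381 lower). Of these, 335 were lower with no filter and 933 with voom. CREB targets gave 6 to 10 rises, and 1 fall without the trend and with voom. The 8 other lists gave 3 rises and 5 falls in all: 1 rise with no filter, 3 falls with quantile normalization or without the trend, 13 with voom, and 1 to 2 rises and 2 to 3 falls with 1 library left out. With the replicate number as a block, 825 genes changed, and in those 8 lists 2 rose and 2 fell. The block changed the call of none of the 10 genes: Mc1r had 0.12 and Sik1 0.36. It ended those of Mgrn1, Prkar2b, Prkacb and Hdac7 (adjusted p = 0.0680, 0.0659, 0.0815 and 0.0643). Calls also ended with no filter for Mgrn1, Adcy7 and Prkar2b (0.0512, 0.0771 and 0.0819), without the trend for Mgrn1, Prkar2b and Prkacb (0.0557, 0.0582 and 0.0707) and with quantile normalization for Prkacb and Hdac7 (0.0666 and 0.0524). The labels do not say what a shared number means, so the numbers were not taken as pairs. Same-numbered libraries had correlations of -0.0024, 0.0549 and -0.0210 over 10680 genes. Those of differently numbered libraries ran from -0.0625 to 0.0603. The causes of these shifts were not tested. Among the 10 genes Crem had the fewest reads, at 284 to 503, and tested list genes such as Fos had fewer still, at 129 to 286.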

Other observations

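The cAMP-specific phosphodiesterase genes Pde4b and Pde4d, which CREB induces and which lower cAMP, were below the filter of 1 FPKM and are named after their values were seen. Pde4b was at 0.684, 0.565 and 0.589 FPKM with rPPAA18C6@Dox and at 0.469, 0.435 and 0.472 FPKM with PBS, with no overlap and 335 to 525 reads per library. Pde4d was at 0.235 ± 0.0264 FPKM with rPPAA18C6@Dox and 0.196 ± 0.00731 FPKM with PBS, also with no overlap. In the fit with no filter the log2 differences were 0.14 (SE 0.0371, limma adjusted p = 0.0899) and 0.05 (SE 0.0244, adjusted p = 0.350). The p-value column of the authors' deposited table gives 2.23e-05 for Pde4b and 0.00582 for Pde4d. Its test is not stated, nor whether it was adjusted, so its values cannot be set against the adjusted limma values.

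That column of the authors' deposited table gives 2.50e-06 for Mc1r, 9.17e-08 for Sik1 and 9.07e-06 for Crem, the 3 smallest of the 10 genes. For Sik2 it gives 0.0307, for Crtc1 0.0604 and for Crtc2 0.0713, and the other 4 lie between 0.389 and 0.787. Of the 3 Nr4a genes, early response genes that CREB induces, Nr4a3 was at 1.59 times, Nr4a1 at 1.17 times and Nr4a2, which did not pass the test, at 0.769 times its PBS mean.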
